A study of Rattus norvegicus with 9 samples.

Results

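Endothelin, nitric oxide and natriuretic peptide signalling was followed through 10 genes in kidney RNA from 9 rats, 4 labelled case and 5 labelled control. The genes were the endothelin ligand and its receptors (Edn1, Ednra, Ednrb), nitric oxide synthases (Nos3, Nos1), subunits of the nitric oxide receptor (Gucy1a1, Gucy1b1), natriuretic peptide receptors (Npr1, Npr3) and the bradykinin receptor Bdkrb2. Members were all probe sets whose single gene symbol was one of these 10, and each probe set was kept apart. That gave 12 probe sets for 8 of the 10 genes, out of 10411 genes with a symbol on the array. No probe set carried the symbol or gene identifier of Ednra or Ednrb in the annotation used, so the endothelin receptors were not analysed here. Each animal gave 1 Affymetrix RAE230A array of total kidney RNA, and the series concerns gene expression in hypotension. The labels give neither strain, age nor sex, and do not say how low blood pressure was brought about or whether every case animal had it. The groups are therefore called case and control.

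These genes control vessel tone and salt excretion in the kidney. Endothelin-1, made by endothelium and collecting duct, constricts vessels through its A receptor, whereas its B receptor on endothelium and collecting duct favours nitric oxide release and sodium loss. Nitric oxide binds soluble guanylate cyclase, a dimer of an alpha and a beta subunit, in vascular smooth muscle, mesangium and pericytes, and the cyclic GMP formed relaxes these cells. Natriuretic peptides raise cyclic GMP through a different, membrane-bound cyclase receptor, and bradykinin stimulates endothelial nitric oxide release.

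The brightest member probe set, Gucy1a1 1368154_at, belonged to soluble guanylate cyclase. The cyclase had 4 probe sets, 2 for the alpha subunit Gucy1a1 and 2 for the beta subunit Gucy1b1. All had lower means in case kidneys, where 58.3% of all 15866 probe sets were lower. None passed the test, and case animal 5 lay among or above the controls at each. Edn1, Nos3, Npr1, Npr3, Bdkrb2 and Gucy1b1 1374389_at were dim and lay below the level of testing. That level was a mean log2 value over the 9 arrays above the 40th percentile, near a signal of 33.3. Gucy1a1 1387079_at and Gucy1b1 1369097_s_at passed it only by the control mean, so lower values in case are partly built in there. No member passed at an adjusted p under 0.05 (limma, 9519 probe sets tested), where the share called over all probe sets was 0.0%, and the smallest adjusted p over all tested was 0.136.

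The promoters of the cyclase subunits are shown because their probe sets gave the 3 lowest p among the 4 member probe sets tested. At 1387079_at and 1369097_s_at lower case values are partly built in, since they passed the level of testing only by the control mean. The genes also lie next to each other on rat chromosome 2. Between them the GRCr8 annotation holds 1 small nuclear RNA gene and no protein-coding gene. The sequences are RefSeq's, 300 bases each from 250 before to 50 after the gene start, minus strand, written 5′ to 3′. Capitals mark CCAAT, the box bound by nuclear factor Y, and GGGCGG, a GC box of the kind bound by Sp1, on either strand.
Gucy1a1, GRCr8 chr2:169779574-169779873, minus strand: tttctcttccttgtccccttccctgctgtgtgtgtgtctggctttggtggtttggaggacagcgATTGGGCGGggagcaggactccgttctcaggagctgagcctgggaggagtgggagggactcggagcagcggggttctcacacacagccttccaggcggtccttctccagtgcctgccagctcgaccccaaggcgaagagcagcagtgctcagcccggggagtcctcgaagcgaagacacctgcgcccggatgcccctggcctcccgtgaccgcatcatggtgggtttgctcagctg
Gucy1b1, GRCr8 chr2:169696938-169697237, minus strand: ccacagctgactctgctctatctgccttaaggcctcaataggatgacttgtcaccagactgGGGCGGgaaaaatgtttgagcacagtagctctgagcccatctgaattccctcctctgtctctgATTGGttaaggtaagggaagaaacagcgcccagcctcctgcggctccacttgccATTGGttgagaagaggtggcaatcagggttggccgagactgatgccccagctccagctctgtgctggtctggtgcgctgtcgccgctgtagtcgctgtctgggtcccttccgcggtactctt
CCAAT was found 1 time in the Gucy1a1 window and 2 times in the Gucy1b1 window, each time on the reverse strand as ATTGG, and GGGCGG 1 time in each. In Gucy1a1 the 2 motifs overlap. Of 33469 rat promoters of this length, 37.5% hold CCAAT, 33.1% hold GGGCGG and 11.8% hold both. Of the other members, the table gave promoters for Edn1, Ednra, Ednrb, Nos3, Nos1, Npr1 and Npr3, and among these Npr1 holds both. Bdkrb2 was not searched. These are matches of letters in a window, and no binding was measured.

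Gucy1a1, the alpha subunit, was brightest at probe set 1368154_at. Its signals were 157.6, 253.2, 159.3 and 126.4 in case animals 3, 5, 7 and 8, and 219.6, 203.8, 201.1, 192.1 and 187.6 in control animals 4, 9, 10, 11 and 12. Case animals 3, 7 and 8 lay below every control and case animal 5 above every control, so the groups overlapped. The case mean was 174 ± 54.8 (SD, n = 4), against 201 ± 12.4 (SD, n = 5) for the controls. The difference, case minus control on the scale of log2(signal + 5.03), was -0.24 ± 0.17 (SE; limma adjusted p = 0.845), and its 95% interval of -0.61 to 0.12 includes 0. The 5 controls spanned a narrow range and the case animals a wide one.

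The other Gucy1a1 probe set, 1387079_at, was dimmer and gave a larger difference. Its signals were 10.7, 56.3, 19.5 and 40.3 in case animals 3, 5, 7 and 8, and 55.4, 49.8, 53.8, 34.2 and 67.7 in control animals 4, 9, 10, 11 and 12. Case animals 3 and 7 were below every control, case animal 8 was above control animal 11, and case animal 5 was above every control but animal 12. The log2 difference was -0.80 ± 0.34 (SE; limma adjusted p = 0.711), a case level of 0.574 times control on the log2(signal + 5.03) scale, which understates the change of dim probe sets. Of the 4 member probe sets tested it was the only 1 with an unadjusted limma p under 0.05, which 6.69% of all probe sets tested had. The probe set passed the level of testing only by the control mean, so a lower value in case is partly built in. Its interval, -1.54 to -0.06, was not adjusted for the number of probe sets.

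Gucy1b1, the beta subunit without which the dimer cannot bind nitric oxide at its heme, had its lowest signals in case animals 3 and 8. At probe set 1369097_s_at the signals were 24.0, 44.4, 38.7 and 20.1 in case animals 3, 5, 7 and 8, and 41.8, 47.1, 40.3, 57.8 and 35.6 in control animals 4, 9, 10, 11 and 12. Case animals 3 and 8 lay below every control, and case animals 5 and 7 lay within the control range. The means of 31.8 ± 11.6 (SD, n = 4) and 44.5 ± 8.48 (SD, n = 5) gave a log2 difference of -0.47 ± 0.23 (SE; limma adjusted p = 0.775). The second probe set, 1374389_at, was too dim to be tested, with 9.7, 14.0, 11.4 and 6.1 in the case animals and 14.4, 32.0, 11.9, 20.0 and 14.0 in the controls, in the same order of animals. At 1374389_at case animals 3, 7 and 8 lay below every control, and the fit without a signal filter gave -0.58 ± 0.27 (SE; limma adjusted p = 0.805). All signals there, case and control, except the 32.0 of control animal 9 lay within the range of 27 bacterial control probe sets (0.1 to 29.3, described under Nos3). Of these, 25 had a lower mean. The signals of case animals 3 and 7 at Gucy1a1 1387079_at, and of 3 and 8 at 1369097_s_at, also lay within that range.

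**Figure D1:**
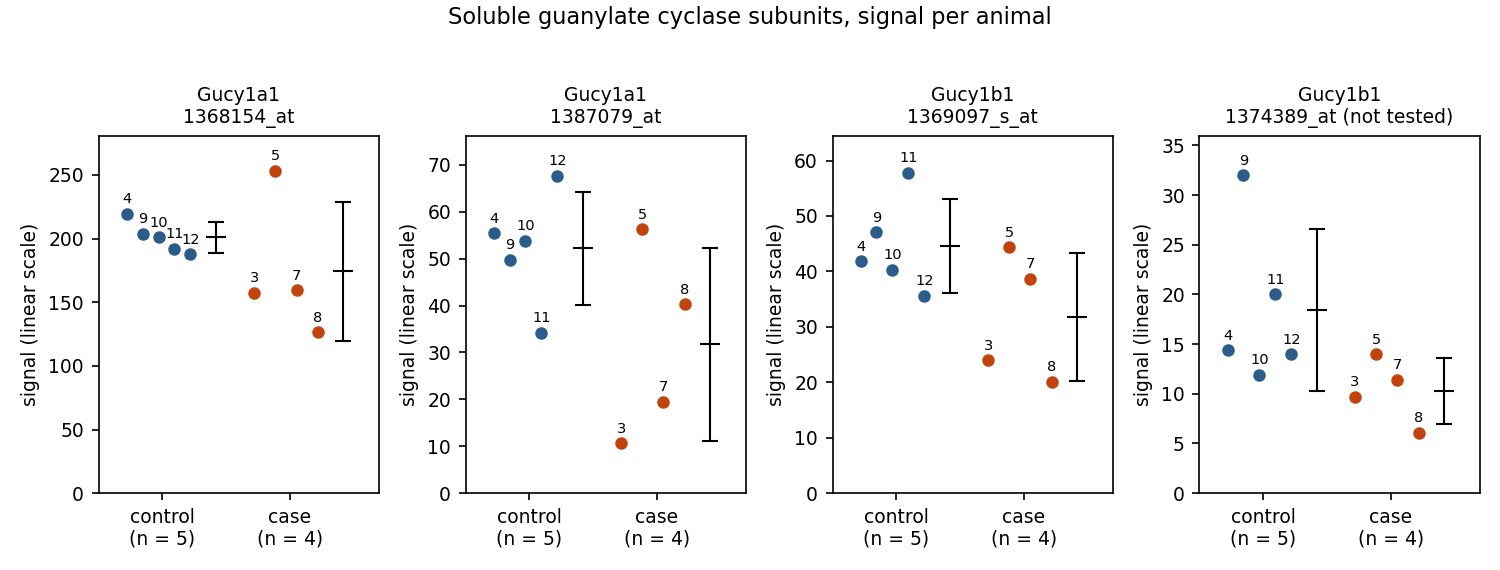
Signal on a linear scale (vertical axis) at the 4 guanylate cyclase probe sets, 1 point per animal with its number, blue for the 5 controls and red for the 4 case animals; bars give the mean and SD of a group. The case and control values overlap in all 4 panels, and case animal 5 lies below every control in none.

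Case animals 3, 7 and 8 lay below every control at some or all cyclase probe sets, and case animal 5 at none. The share of all probe sets below every control in each animal was not counted, so no weight rests on these positions. The arrays of case animals 7 and 8 had the lowest median signals, 45.2 and 46.8, against 49.1 to 55.6 in controls. With median centring the log2 differences were -0.16 ± 0.16 (SE) and -0.71 ± 0.34 for Gucy1a1 1368154_at and 1387079_at, and -0.38 ± 0.23 for Gucy1b1 1369097_s_at. Probe sets of 1 gene share its transcript and are not separate evidence. In bulk tissue, fewer cyclase-expressing cells and less RNA per cell cannot be told apart. Without case animal 5, which left 3 case animals, the log2 differences became -0.44 ± 0.13 (SE) and -1.11 ± 0.31 for the Gucy1a1 probe sets 1368154_at and 1387079_at and -0.63 ± 0.23 for Gucy1b1 1369097_s_at, with limma adjusted p of 0.207, 0.181 and 0.316. In that fit 11.2% of all probe sets had an unadjusted p under 0.05 and 0.557% passed the threshold, so the removal of this animal raised calls over the whole array, not only here.

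A measure of RNA quality differed between the case animals. The ratio of the 3′ to the 5′ actin probe set, which rises as RNA shortens, was 3.05 and 3.11 in case animals 7 and 8, 1.57 and 1.52 in case animals 3 and 5, and 1.12 to 2.0 in the controls. Without case animals 7 and 8 the difference of Gucy1a1 at 1368154_at was -0.00 ± 0.18 (SE), whereas that at 1387079_at was -0.85 ± 0.43 and that of Gucy1b1 -0.37 ± 0.27. With the log2 actin ratio as a covariate the 3 values were -0.10 ± 0.17, -0.82 ± 0.39 and -0.42 ± 0.26 in the same order (limma adjusted p = 0.997 for each). Without case animals 7 and 8 only case animals 3 and 5 remain, which lay on opposite sides of the controls at 1368154_at. The part of RNA quality in these values was not tested apart from that of case animal 5.

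Grouped by recorded times at least 10 minutes apart, the arrays fell into 3 sets, inferred here to be fluidics runs. Run 1 held case animals 3, 5 and 7 and control animal 4, run 2 case animal 8 and 3 controls, and run 3 control animal 12. Within run 1 the log2 differences were -0.24 and -1.07 for the Gucy1a1 probe sets 1368154_at and 1387079_at and -0.24 for Gucy1b1 1369097_s_at. Within run 2 they were -0.63, -0.15 and -1.08. Each run had 1 array in one of its groups, and the probe set that differed most was not the same in both. With the run as a block, the values were -0.44 ± 0.20 (SE), -0.61 ± 0.44 and -0.66 ± 0.28 (limma adjusted p = 0.650, 0.729 and 0.639).

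**Figure D2:**
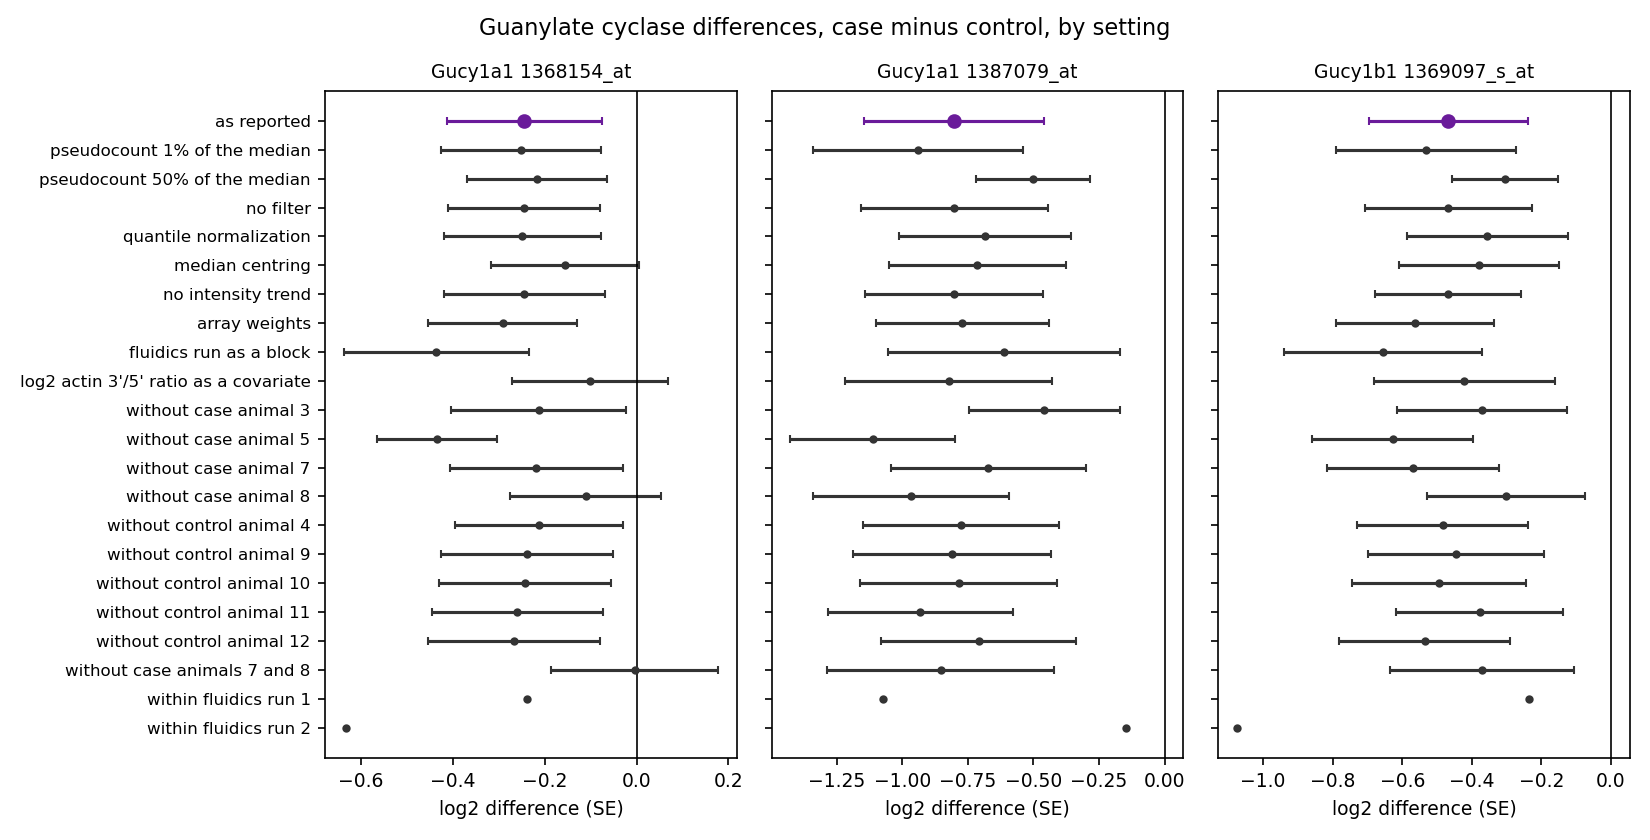
Log2 difference, case minus control (horizontal axis, bars give the SE), of the 3 tested guanylate cyclase probe sets under each setting (vertical axis); within-run values have no SE. All points lie below 0, with Gucy1a1 1368154_at at -0.00 without case animals 7 and 8.

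Of the nitric oxide synthases, Nos1, the neuronal form that the macula densa expresses, was near the level of testing. Its signals were 45.9, 31.6, 25.3 and 26.6 in case animals 3, 5, 7 and 8, and 56.2, 27.2, 38.1, 30.5 and 46.3 in control animals 4, 9, 10, 11 and 12. The groups overlapped widely, and case animals 7 and 8, those with the high actin ratio, were the lowest of all. The log2 difference was -0.25 ± 0.23 (SE; limma adjusted p = 0.902), -0.01 ± 0.29 without those animals. Within run 1 it was -0.67 and within run 2 -0.21.

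Nos3, the endothelial synthase and a main source of vascular nitric oxide, gave 1.3, 11.9, 4.9 and 1.9 in case animals 3, 5, 7 and 8, and 8.0, 10.3, 11.3, 8.3 and 3.0 in control animals 4, 9, 10, 11 and 12. Case animals 3 and 8 were below every control, case animal 5 above every control and case animal 7 within the control range. For Gucy1a1 at 1368154_at animals 3, 5 and 8 lay on the same sides of the controls, but animal 7 lay below every control. For comparison, 27 control probe sets for bacterial transcripts that rat RNA does not hold were picked by name (Dap, Lys, Phe, Thr, Trpn and r2-Bs) from the array's 57 controls. They had a median signal of 1.8 and values from 0.1 to 29.3, and 23 of these had a lower mean than Nos3. Whether those transcripts were spiked into the samples is not stated. Nos3 signals all lay within the range of these controls, and the probe set was too dim to be tested.

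Edn1, which encodes the precursor of endothelin-1, had signals of 30.1, 33.7, 22.3 and 24.9 in case animals 3, 5, 7 and 8, and 33.6, 36.3, 44.7, 24.6 and 18.9 in control animals 4, 9, 10, 11 and 12. All case animals fell inside the control range, so no difference was visible beyond the spread. The mean was above that of all 27 bacterial control probe sets, but just under the level of testing. Without the filter the log2 difference was -0.13 ± 0.25 (SE; limma adjusted p = 0.969).

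Npr1, the cyclase receptor for atrial and brain natriuretic peptides, had signals of 14.0, 40.5, 37.1 and 46.4 in case animals 3, 5, 7 and 8, and 8.1, 42.4, 11.6, 43.8 and 34.0 in control animals 4, 9, 10, 11 and 12. Low and high animals occurred in both groups, with case animal 3 and control animals 4 and 10 low. Its difference without the filter was 0.36 ± 0.44 (SE), the largest positive value among the members and smaller than its error. Within run 1 it was 1.34 and within run 2 0.61, each with 1 array in one of the groups. Npr3, the receptor that clears natriuretic peptides, gave only 1.9 to 4.0 in case and 2.4 to 5.8 in control animals, and 16 of the 27 bacterial control probe sets had a lower mean. No level above background can be read for Npr3 from this probe set.

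Bdkrb2, the constitutive bradykinin receptor, had 3 probe sets, all below the level of testing. At 1370649_at the signals were 29.1, 34.8, 29.0 and 29.8 in case animals 3, 5, 7 and 8, and 41.7, 18.2, 17.5, 31.0 and 36.3 in control animals 4, 9, 10, 11 and 12. The case animals were close together in the middle of the control range. The other probe sets ranged from 17.5 to 29.3 (1371120_s_at) and from 2.7 to 12.9 (1370650_s_at) over all animals, and without the filter the 3 log2 differences were 0.13, -0.06 and 0.06, each smaller than its SE.

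**Figure D3:**
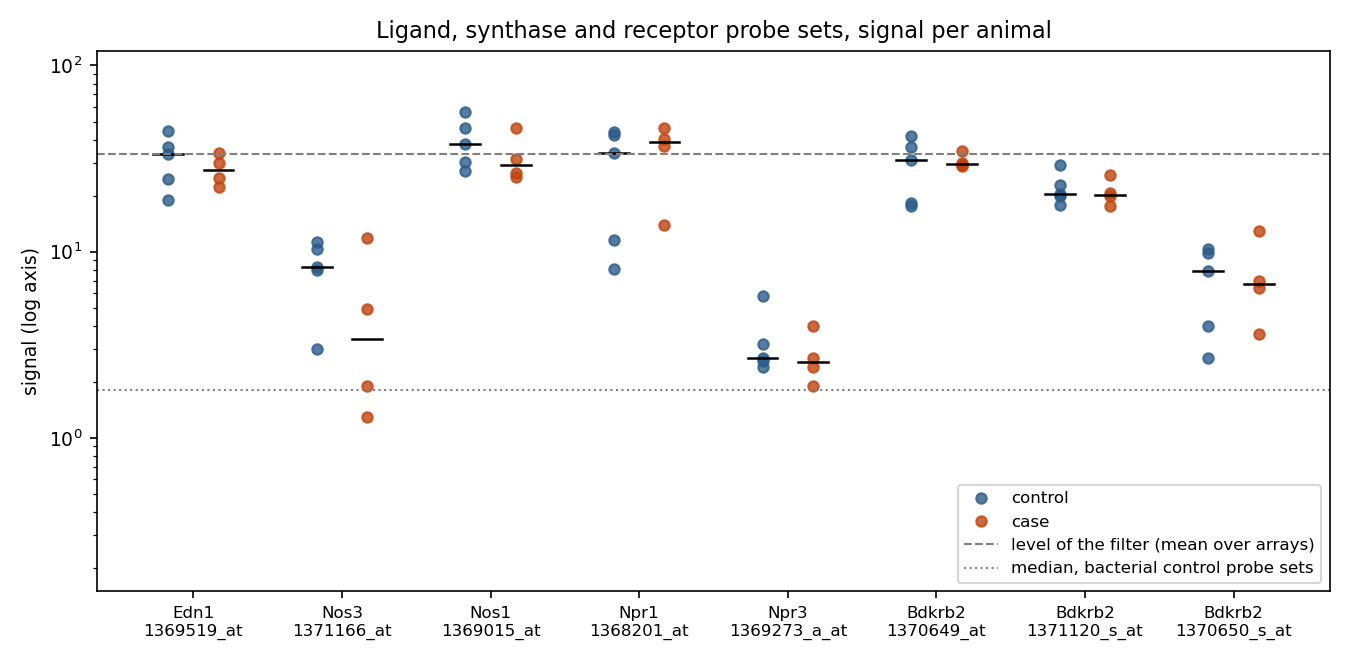
Signal on a log axis of the 8 probe sets of Edn1, the synthases, the natriuretic peptide receptors and Bdkrb2, 1 point per animal (blue control, red case) with the group median as a bar; the dashed line is the level of testing at 33.3 and the dotted line the median of the bacterial controls at 1.8. The groups overlap at every probe set, and only Nos1 has a mean above the level of testing.

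Over all 12 member probe sets, without the filter, 9 had a lower and 3 a higher mean in case, where 58.3% of the 15866 probe sets were lower. Their median log2 difference was -0.19, against -0.04 over all probe sets. In 0 of 12 did the case and control values separate fully, a pattern seen in 1.71% of all probe sets. Of the 4 tested member probe sets, 1 lay above the level of testing by the mean of either group and 3 only by the control mean, so lower values in case are built into that selection and no count over the tested members is given as support.

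Further genes of the pathway were taken from a list of 71 that held no member. Of these, 56 were on the array and 33 were tested, each by its brightest probe set; 0 passed over all probe sets (limma), and at an unadjusted p under 0.05 there were 1 lower and 0 higher, against 3.81% and 2.88% of all probe sets. In all, 18 were lower and 15 higher, with a median log2 difference of -0.03, against -0.02 over all probe sets tested.

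By role, genes that carry the endothelin and kinin signal inside the cell had 8 lower and 1 higher of 9 tested (median -0.24), where 54.0% of all tested probe sets were lower. Rgs5 and Prkca passed the level of testing only by the control mean (29.6 and 31.0 in case, 40.2 and 41.7 in control). Lower values in case are therefore partly built into this count. Among brightest probe sets the lowest p belonged to Rgs5, which shortens signalling from Gq- and Gi-coupled receptors and marks pericytes. Its signals were 28.9, 28.4, 26.9 and 34.1 in case animals 3, 5, 7 and 8, and 41.2, 40.8, 30.1, 41.3 and 47.7 in control animals 4, 9, 10, 11 and 12. Only control animal 10 fell among the case animals, and the log2 difference was -0.38 ± 0.18 (SE; limma adjusted p = 0.747). Prkca and Prkce, protein kinase C isoforms that act downstream of endothelin receptors, differed by -0.35 ± 0.19 and -0.31 ± 0.19. Prkca was near 31 in every case animal (29.9 to 32.7) and 28.2 to 49.8 in controls. Plcb3, a phospholipase C that Gq activates, went the other way by 0.44 ± 0.25, with 66.8 to 90.6 in case and 26.3 to 82.9 in control animals.

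Nitric oxide synthesis and its supply had 6 lower and 7 higher of 13 tested (median 0.06). Hsp90ab1, a chaperone of the family that binds the endothelial synthase and soluble guanylate cyclase, differed by -0.33 ± 0.16 (SE), with 818.7 to 1218.3 in case and 1019.7 to 1575.5 in control animals, and by -0.87 ± 0.30 at its other tested probe set, whose p was the smallest among the named pathway genes but which does not enter the counts by brightest probe set. Gchfr, the feedback regulator of the enzyme that starts synthesis of tetrahydrobiopterin, a cofactor of the synthases, differed by 0.24 ± 0.13, with 181.1 to 249.3 against 156.9 to 191.6. Slc7a1, a carrier for arginine, differed by 0.16 ± 0.15, and by -0.10 ± 0.19 at another probe set. None of these probe sets passed (limma adjusted p from 0.644 to 0.958).

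The natriuretic peptides and their processing had 1 lower and 2 higher of 3 tested, with Furin, a protease that cleaves propeptides, at 0.14 ± 0.13. Genes for cyclic GMP targets and breakdown had 3 lower and 3 higher of 6 tested (median -0.04), and endothelin and kinin supply had 0 lower and 2 higher of 2. Over the 5 role groups the medians ran from -0.24 to 0.14.

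**Figure D4:**
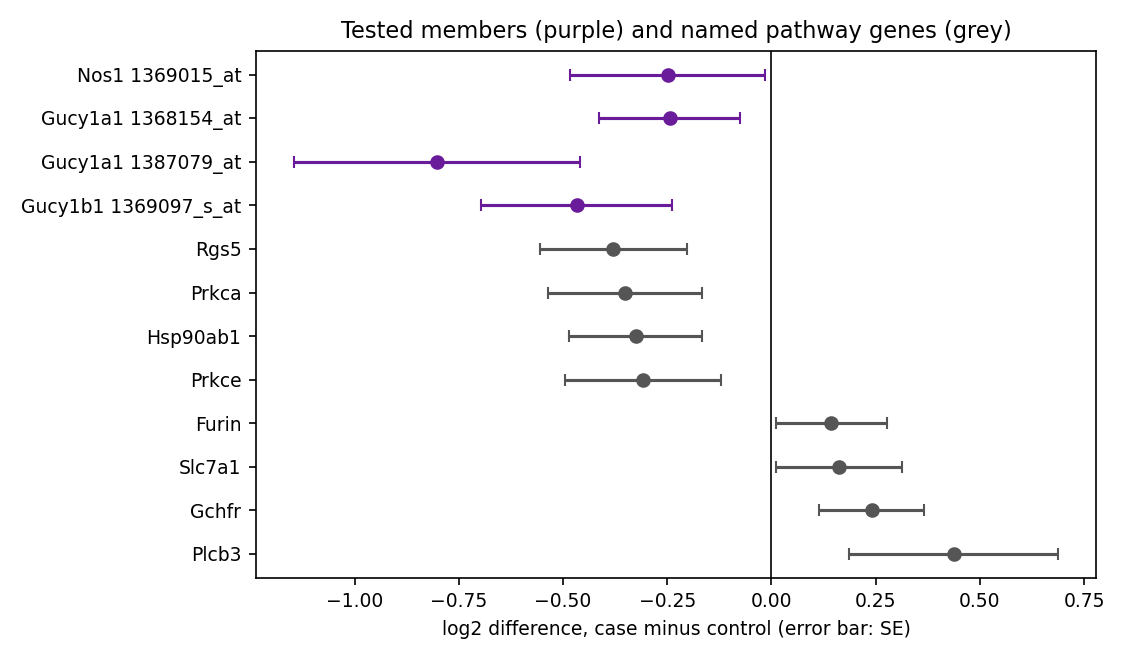
Log2 difference, case minus control (horizontal axis, bars give the SE), for the 4 tested member probe sets in purple and the brightest probe set of each of the 8 named pathway genes in grey. Among the points drawn Gucy1a1 1387079_at has the lowest value, -0.80, and Plcb3 the highest, 0.44, and none passed the test.

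Markers of the vessel cells that carry this signalling went both ways. Of 12 endothelial markers tested, 8 were lower and 4 higher in case (median -0.12), and of 8 smooth muscle and mesangial markers 7 were lower and 1 higher (median -0.19), where 54.0% of all probe sets tested were lower. Rgs5, Des and Pdgfrb of the smooth muscle list passed the level of testing only by the control mean of log2 values. Lower values in case are therefore partly built into that count. At an unadjusted p under 0.05, 2 of each list were lower, where 3.81% of all probe sets were, and 0 passed the threshold (limma). In the smooth muscle list these were Myh11 and Rgs5, and the Rgs5 probe set is the one already counted among the pathway genes. Myh11, the smooth muscle myosin, differed by -0.43 ± 0.14 (SE), with 71.9 to 85.7 in case and 85.5 to 126.7 in control animals, and the adhesion protein gene Esam of endothelium by -0.48 ± 0.19. Egfl7, which endothelium secretes, differed by -0.45 ± 0.18 at its brightest probe set and by -0.17 ± 0.17 at a second one. The highest values of the 2 lists, named after they were seen, were 0.33 ± 0.21 for Ptprb, an endothelial phosphatase, and 0.22 ± 0.17 for Smtn, a smooth muscle cytoskeletal protein. The summed signal of the smooth muscle list was 506 to 620 in case and 570 to 657 in control, and that of the endothelial list 1429 to 1919 and 1603 to 1793, with no marker at 0 on any array. Their part in the guanylate cyclase values was not tested.

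The tissue label held for kidney markers. Summed signals were 12346 to 18242 for proximal tubule and 5278 to 7194 for thick limb and macula densa markers, and 35.5 to 81.0 for liver and 15.8 to 36.5 for adipose markers, over all animals. The podocyte list differed by a median of 0.04, the collecting duct list by -0.13, the proximal tubule list by 0.03, the leukocyte list by -0.03 and the thick limb and macula densa list by -0.11. Median signals of the arrays ran from 45.2 to 55.6. With 4 and 5 animals, their number sets the precision of each difference.

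The genes whose values followed Gucy1a1 (1368154_at) most closely across the 9 arrays, after each group's mean was subtracted, were Mtus1 (Pearson r = 0.95), Rilpl2 (0.94) and Ddx6 (0.94), among 7147 genes compared. These are descriptions of 9 arrays that share runs and RNA quality. At Gucy1a1 1368154_at case animal 5 lay farthest from its group mean (253.2 against 174), while controls spanned 187.6 to 219.6. The correlations therefore rest largely on the case animals. Edn1, Nos3 and Npr3 were too dim for such a comparison.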

How the data were processed

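The case and control groups were taken from the labels, which do not pair animals. Per the file headers, the arrays were RAE230A. The deposited table gives an intensity for each probe set on each array, not log-transformed and scaled by the authors so that the mean after trimming 2% at each end is near 100 on every array. The sources used here name neither the summarising software nor its background correction or detection calls. The experiment files, whose other values deposited by the instrument are settings and times, gave hybridization times. Fluidics runs were inferred from these, with a new run where times lay at least 10 minutes apart.

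No 2 arrays were copies (Pearson r of log2 signals over probe sets 0.92 to 0.96). Control probe sets (57) were left out. Of the other 15866, 12783 had 1 symbol, 312 several and 2771 none. Symbols were updated by Entrez ID through a RefSeq table of GRCr8 (12748 matched). Values were used as log2(signal + 5.03), with 10% of the median signal, 50.3, as pseudocount. Probe sets with a mean above the 40th percentile (9519) were compared by limma 3.58.1 in R 4.3.3 with a trended variance prior (2-sided, Benjamini-Hochberg over all of them), and the steps were tested on simulated data. Further listed genes are given by the probe set of highest mean signal. Named were all members, and of the further pathway list the 4 genes of smallest p in each direction. Of the endothelial and the smooth muscle lists the 2 genes of smallest p were named. The 3 genes most like a member in pattern were named for tested members among Edn1, Ednrb, Nos3, Gucy1a1 and Npr3. The members and lists were chosen with earlier results of these data known, and the bacterial controls after the values were seen. Alternatives covered the pseudocount, filter, normalization, variance prior, array weights, fluidics run, actin ratio and each animal left out. Tables used pandas 2.3.3 and NumPy 2.4.6 under Python 3.11.15, and figures matplotlib 3.10.9.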

Additional observations from a re-analysis of the deposited data

Results flagged for a closer look

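Of 24 groups of values at the member probe sets, 2 held a value far from the rest by the gap test applied to 4 to 10 samples, which chance gives in about 1 of 20 groups. Control animal 4 had an Npr3 signal of 5.8, the highest of the controls, where the others had 2.4 to 3.2. Case animal 5 had a Bdkrb2 signal of 34.8 at 1370649_at, the highest of the case animals, where the others had 29.0 to 29.8. Both probe sets lay below the level of testing.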

How the results depend on the processing

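The count of member probe sets past the threshold was 0 as reported and in all 20 alternative fits. The member probe sets at an unadjusted p under 0.05, 1 of 4 as reported, numbered 0 to 3. The 85 recomputed values of the 4 tested member probe sets were all below 0, which for 3 of them is partly built in, since they passed the filter only by the control mean. Over all probe sets the count past the threshold, 0 as reported with limma (637 at an unadjusted p under 0.05), was 1 with a pseudocount of 50% of the median, 1 with no filter and 1 with median centring, and 0 to 53 when 1 animal was left out, the 53 without case animal 5. Leaving out case animals 7 and 8, a choice made after seeing the data, gave 0. With the filter at the 60th percentile only Gucy1a1 1368154_at remained of the members. Leaving out 1 animal gave -0.44 to -0.11 for Gucy1a1 1368154_at, -1.11 to -0.46 for 1387079_at, -0.63 to -0.30 for Gucy1b1 1369097_s_at and -0.41 to -0.13 for Nos1. The lowest values of the 3 cyclase probe sets came without case animal 5, and the highest without case animal 8 or, at 1387079_at, without case animal 3. No paired analysis was possible because the labels give no number that case and control animals share. The table gives no detection calls, so signals of dim probe sets such as Nos3 and Npr3 have no limit of detection here.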
